A study of Rattus norvegicus with 6 samples.

Results

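Long noncoding RNAs (lncRNAs) are transcripts, conventionally longer than 200 bases, that are not translated into protein, and many of them lie beside protein-coding genes. The transcripts described here are the Ensembl-annotated ones, that is, the rows of the lncRNA table whose identifier is an Ensembl rat transcript number (ENSRNOT). They made up 867 of the 22783 lncRNAs listed, and the others came from the NONCODE catalogue (20148) or from the authors' own assembly (1768). The spinal cord was taken on day 14, at the lumbar enlargement of the operated side, and gave 6 RNA libraries, 3 of bone cancer pain (BCP) rats and 3 of sham-operated rats, all adult female Wistar. BCP rats had received living Walker 256 cells, a rat breast carcinoma line, in the marrow cavity of the left tibia, whereas sham rats had received the same cells killed by heat and the same operation. Nothing in the labels ties a library to a named animal, and p-values therefore measure the spread between libraries.

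The Ensembl catalogue mixes RNAs of very different kinds. Some are ancient structured RNAs with known work in every cell, namely 7SK, which restrains transcription elongation by holding the kinase P-TEFb inactive, the RNA of RNase MRP, which acts in processing of ribosomal RNA, and 7SL, the RNA scaffold of the signal recognition particle. Others are listed under the names of protein-coding genes such as Snx3, a sorting nexin of endosomes. Most have no name beyond that of a genomic clone. Of the 867 transcripts, 754 carried a clone name beginning with AABR or AC, 76 a provisional name beginning with Rn60, and 37 another name. None carried any of 70 names searched for well-known lncRNAs, such as Miat, Snhg11 and Terc, in the spelling used. Dlx6as (ENSRNOT00000076124), an lncRNA of the Dlx5 and Dlx6 homeobox locus that was searched under another spelling, is among the transcripts, with 2, 1 and 2 counts in sham and 1, 2 and 0 in BCP libraries, and was not tested. By name, 20 transcripts belonged to 13 genes that RefSeq classes as protein-coding and 5 to 3 genes that it classes as lncRNA. Chromosome 1 held the most, 113. Transcript length ran from 92 to 6316 bases with a median of 809, and 14 were shorter than 200 bases. The deposited tables give the span of each transcript but neither its exons nor its strand. Within these limits, 82 transcripts overlapped the span of a gene other than their own, and 416 lay within 10 kb of such a gene.

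The promoters below belong to the genes on which the results for these transcripts turn. Tap2, Gcnt1 and Cd14 are protein-coding neighbors of transcripts that rose in BCP rats, and LOC102549726 is a noncoding gene of the class itself that lies among MHC class I genes that rose. Each is the RefSeq sequence matched by gene symbol, 250 bases before and 50 bases after the start of the gene, in the assembly GRCr8, whereas the coordinates of the transcripts elsewhere in the text are those of Rnor_6.0. Tap2 is at chr20:4652247-4652546 on the minus strand, Gcnt1 at chr1:224150059-224150358 on the minus strand, Cd14 at chr18:28611109-28611408 on the minus strand and LOC102549726 at chr20:3880958-3881257 on the plus strand. Capitals mark matches to 4 motifs searched on both strands, the core of the interferon-stimulated response element (GAAA, any 2 bases, GAAA), the interferon-gamma activated site (TTCNNNGAA), the PU.1 core (GAGGAAGT) and the cyclic AMP response element (TGACGTCA). Matches to different motifs can share letters, which did not occur in these sequences.
Tap2: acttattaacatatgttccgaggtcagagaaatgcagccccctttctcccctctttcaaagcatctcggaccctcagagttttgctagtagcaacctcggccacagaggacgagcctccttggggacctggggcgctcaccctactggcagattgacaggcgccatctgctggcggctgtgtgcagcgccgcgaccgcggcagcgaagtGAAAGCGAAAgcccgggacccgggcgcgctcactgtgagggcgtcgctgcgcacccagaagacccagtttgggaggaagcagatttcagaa
Gcnt1: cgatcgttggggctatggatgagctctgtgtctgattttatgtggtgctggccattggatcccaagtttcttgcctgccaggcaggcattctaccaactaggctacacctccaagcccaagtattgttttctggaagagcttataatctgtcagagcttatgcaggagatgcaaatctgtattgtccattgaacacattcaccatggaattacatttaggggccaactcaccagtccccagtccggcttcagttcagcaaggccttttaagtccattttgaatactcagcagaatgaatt
Cd14: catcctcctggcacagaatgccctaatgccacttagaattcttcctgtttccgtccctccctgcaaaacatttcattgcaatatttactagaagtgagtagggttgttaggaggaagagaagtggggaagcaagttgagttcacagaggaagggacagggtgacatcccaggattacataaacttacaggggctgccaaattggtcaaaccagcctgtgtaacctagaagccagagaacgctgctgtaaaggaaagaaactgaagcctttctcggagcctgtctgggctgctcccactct
LOC102549726: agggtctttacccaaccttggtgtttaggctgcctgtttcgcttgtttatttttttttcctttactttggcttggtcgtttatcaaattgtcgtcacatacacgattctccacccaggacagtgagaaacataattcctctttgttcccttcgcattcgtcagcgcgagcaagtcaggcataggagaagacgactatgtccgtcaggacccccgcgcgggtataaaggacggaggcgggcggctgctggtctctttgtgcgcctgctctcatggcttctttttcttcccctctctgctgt
Tap2 held 1 match, to the interferon-stimulated core, starting at base 210 of 300, and no other match was found in these windows. That motif was found in 3.77% of 27457 promoters of the same length, the interferon-gamma activated site in 8.68%, the PU.1 core in 2.44% and the cyclic AMP response element in 1.91%. A match describes letters only and says nothing on binding.

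Depth was similar across libraries. The lncRNA counts totaled 1946315 to 2531114 per library and the gene counts 11779485 to 15004290. Levels are given as CPM, counts scaled to the TMM-normalized size of the library in the same table, and levels compared between transcripts are given per length, as the authors' FPKM. The cord's own markers were present, with the summed level of 5 neuronal genes at 2378 to 2522 CPM in sham and 2245 to 2439 in BCP libraries, 3 motor neuron genes at 57.6 to 80.3 and 54.8 to 62.7, and the lumbar genes Hoxc10 and Hoxd10 at 86.3 to 106 and 75.6 to 85.5. Epithelial tumor genes (Epcam, Krt8, Krt18) stayed at 1.14 to 2.03 and 1.72 to 2.37 CPM.

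Ensembl transcripts were low in abundance. Their median level was 0.285 FPKM, against 1.10 for NONCODE and 2.61 for assembled lncRNAs. Counts were found in all 6 libraries for 429 of them (49.5%), compared with 82.6% of NONCODE and 90.1% of assembled transcripts. A median Ensembl transcript had 19 counts over the 6 libraries together, against 62 for NONCODE, and 318 had 10 or fewer. The span on the genome was wider than for NONCODE, with medians of 4934 and 1385.5 bases, while the transcript length was closer (809 and 656 bases). At the filter on low counts, 250 of the 867 (28.8%) had enough counts to be tested, compared with 53.4% of all lncRNAs, 51.1% of NONCODE and 91.2% of assembled ones.

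**Figure D1:**
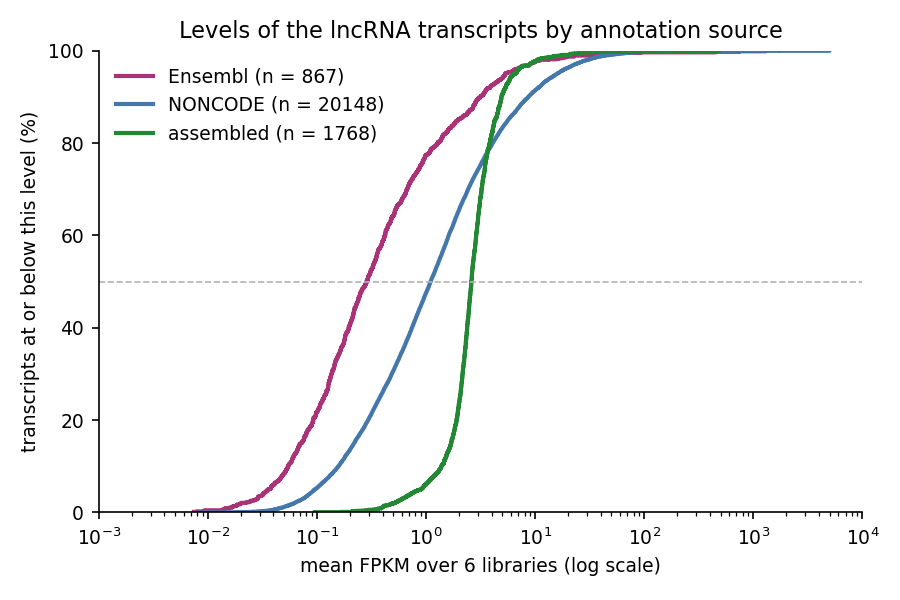
Cumulative share of lncRNA transcripts (vertical axis, percent) at or below a mean FPKM over the 6 libraries (horizontal axis, log scale), for 867 Ensembl, 20148 NONCODE and 1768 assembled transcripts. The dashed line marks 50%, which the Ensembl curve crosses at 0.285 FPKM, to the left of the others.

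Against this low background a few RNAs dominated. The 10 most abundant Ensembl transcripts held 53.0% of all Ensembl counts, and 363 transcripts had a mean level under 1 CPM. 7SK (ENSRNOT00000079055, chromosome 8, 85480292 to 85480622) was the most abundant at 1296 FPKM, with 6723, 6967 and 7851 counts in sham and 5360, 6337 and 5991 in BCP libraries. The RNA of RNase MRP (ENSRNOT00000090903, chromosome 5, 58994682 to 58994953) followed at 742 FPKM, and 7SL, listed as LOC102723236 (ENSRNOT00000088597, chromosome 6, 91680229 to 91680528), at 450 FPKM. Next by FPKM came the Snx3 transcript ENSRNOT00000075924 at 92.8 and LOC100910839, annotated as leucine zipper protein 2-like, at 50.4. Genomes hold many near copies of 7SK and 7SL, and it is not stated how reads with several locations were counted, so these values are uncertain.

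None of these abundant RNAs changed by 2-fold. 7SK stood at 3141 ± 100 CPM in sham and 2854 ± 57.8 in BCP libraries (SD, n = 3), the groups did not overlap, and the log2 fold change (log2FC) was -0.14, with a standard error of 0.04 and an adjusted p of 0.114 by edgeR's quasi-likelihood test. RNase MRP RNA was at 1415 ± 145 and 1403 ± 29.0 CPM, with a log2FC of -0.01 (adjusted p = 0.968, edgeR). 7SL had 2389, 2164 and 3081 counts in sham and 1549, 1673 and 1588 in BCP libraries, without overlap. It was at 1111 ± 164 CPM in sham and 778 ± 25.8 in BCP libraries, with a log2FC of -0.51 (standard error 0.10) and an adjusted p of 0.0707 in edgeR's test, and this p lay between 0.0172 and 0.284 in fits lacking a library. The gene table holds the same counts for 7SL and 7SK, with log2FC of -0.55 and -0.17 and adjusted p of 0.0257 and 0.00537 (edgeR). In that table the spread was smaller, with a biological coefficient of variation of 7.72% against 33.4% for lncRNAs. The study also lists an entry named 7SK among its top down-regulated mRNAs, which was not compared with the transcript here. AABR07034750.1 (ENSRNOT00000090971), also among the 5 most abundant by CPM, was at 670 ± 25.01 CPM in sham and 683 ± 11.2 in BCP libraries, with a log2FC of 0.03 that was short of the threshold (adjusted p = 0.877, edgeR).

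As a class, Ensembl transcripts took 1.62% ± 0.016 of the lncRNA counts in sham and 1.58% ± 0.025 in BCP libraries (SD, n = 3). All 3 BCP shares were lower than all 3 sham shares, and the difference of -0.040 percentage points had p = 0.1 in an exact two-sided permutation test, the smallest that 3 against 3 libraries can give. The highest BCP share, 1.60% (95% Wilson interval 1.59% to 1.62%), and the lowest sham share, 1.61% (1.59% to 1.63%), had intervals that overlapped. These intervals cover counting error only. Without 7SK the difference was -0.020 percentage points (p = 0.3, exact permutation test). Together 7SK, RNase MRP RNA and 7SL held 33.7%, 31.9% and 35.5% of the Ensembl counts in sham libraries. In BCP libraries they held 31.6%, 31.7% and 31.2%, again lower without overlap. The share of the class without all 3 was not tested, so the difference cannot be read as a fall of the class at large.

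The question of which Ensembl transcripts differed between BCP and sham rats was answered by fitting the whole lncRNA table and counting those with an adjusted p below 0.05 and more than a 2-fold change. Of the 250 tested Ensembl transcripts 4 were up-regulated in BCP rats and none was down-regulated, that is, 1.60% were called, against 1.22% of all 12157 tested lncRNAs (1.14% up-regulated and 0.074% down-regulated). The share was thus near that of all lncRNAs. Without correction, 21 Ensembl transcripts were higher and 16 lower with a p-value under 0.05 (14.8%, against 13.3% of all), and DESeq2 called 4 higher and none lower, beside 190 of all 12157 lncRNAs. The median log2FC of the tested Ensembl transcripts was -0.07, compared with -0.01 for all lncRNAs, and 43.6% of them were above 0, against 48.6%. For 30 transcripts every BCP library lay above every sham library and for 25 below, together 22.0%, beside 20.7% of all tested lncRNAs (11.0% above and 9.65% below). The median standard error of a log2FC was 0.29 for Ensembl transcripts, 0.30 for NONCODE and 0.19 for assembled ones.

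**Figure D2:**
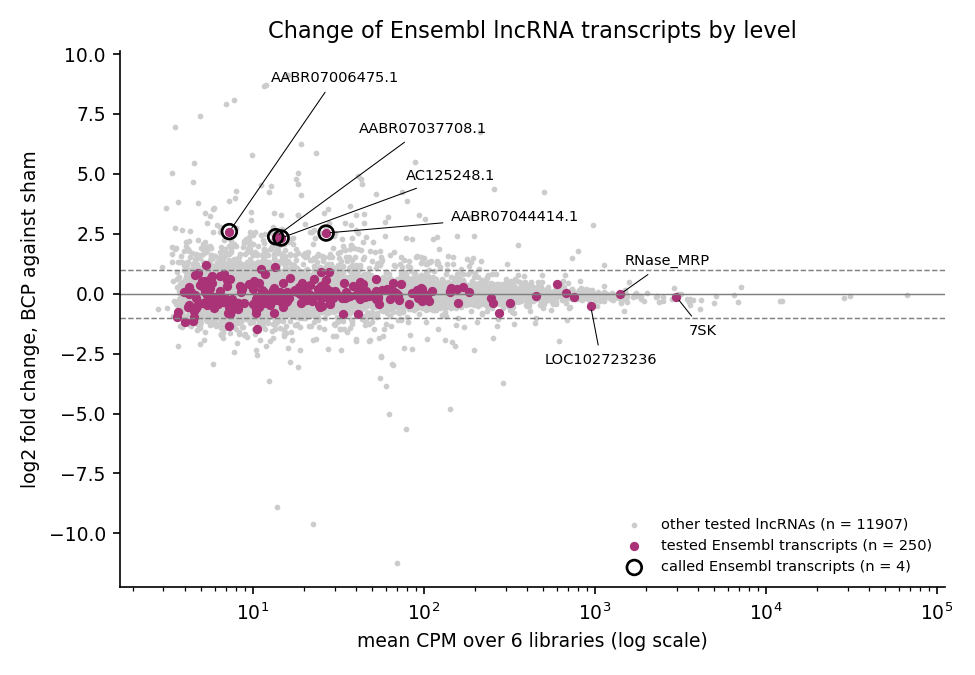
Log2 fold change of BCP against sham (vertical axis) by mean CPM over 6 libraries (horizontal axis, log scale) for the 250 tested Ensembl transcripts and 11907 other tested lncRNAs, with the 4 called Ensembl transcripts circled and dashed lines at a 2-fold change. The called transcripts lie at 7.28 to 26.8 CPM with log2FC of 2.32 to 2.59. At the high end 7SK and RNase_MRP sit near 0 and LOC102723236 at -0.51.

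The 4 up-regulated transcripts all have clone names and do not overlap any other gene in the table. They were 5.01 to 6.03-fold higher in BCP rats. In tissue RNA more cells of a type and more RNA per cell cannot be told apart. AC125248.1 (ENSRNOT00000080979, a lincRNA of 4441 bases on chromosome 18, 29535280 to 29543121) is the Ensembl transcript that the study names. It had 9, 16 and 8 counts in sham and 57, 47 and 46 in BCP libraries. All BCP libraries were well above all sham libraries, at 24.4 ± 4.58 against 4.83 ± 1.92 CPM, and the log2FC was 2.32 (standard error 0.33, adjusted p = 0.0139, edgeR). The nearest other gene is Cd14, 17244 bases away, the co-receptor for bacterial lipopolysaccharide on monocytes, macrophages and microglia. Cd14 was at 2.11 ± 0.833 CPM of gene counts in sham and 6.41 ± 0.805 in BCP libraries, a log2FC of 1.60 (standard error 0.25, adjusted p = 5.82e-05, edgeR). A NONCODE transcript that overlaps AC125248.1, NONRATT013366.2, had 1 count in each sham library and 5, 4 and 4 in the BCP libraries. The next genes, Slc35a4, Apbb3, Tmco6 and Sra1, 25984 to 37870 bases away, had log2FC of 0.05, -0.28, 0.13 and 0.01 and were not called.

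AABR07006475.1 (ENSRNOT00000088585, 2180 bases, chromosome 1, 236547584 to 236579222) had 4, 3 and 7 counts in sham and 19, 24 and 35 in BCP libraries, so that the groups did not overlap. It rose from 2.02 ± 0.801 to 12.5 ± 3.66 CPM (log2FC 2.59, standard error 0.41, adjusted p = 0.0194, edgeR). It lies 812 bases from Gcnt1, the enzyme that starts core 2 branches on O-glycans of leukocyte surface proteins. Gcnt1 rose from 4.41 ± 0.752 to 21.3 ± 3.29 CPM of gene counts, a log2FC of 2.27 (standard error 0.15, adjusted p = 9.01e-10, edgeR). Transcript and gene thus had fold changes of similar size, and a difference between them was not tested.

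AABR07044414.1 (ENSRNOT00000081316, a lincRNA of 882 bases on chromosome 20, 5213922 to 5215510) lies in the major histocompatibility complex, 1298 bases from Tap2. Its counts were 27, 18 and 8 in sham and 71, 87 and 126 in BCP libraries, again without overlap. Per length it was the most abundant of the 4, at a mean of 4.37 FPKM, and it rose from 7.92 ± 4.66 to 45.7 ± 12.6 CPM (log2FC 2.53, standard error 0.45, adjusted p = 0.0468, edgeR). Tap2, a subunit of the transporter that loads peptides for MHC class I, rose from 8.07 ± 2.14 to 23.9 ± 1.59 CPM of gene counts (log2FC 1.57). Farther away, RT1-DMb and RT1-DMa, which exchange peptides on MHC class II, lay 11535 and 25465 bases away with log2FC of 2.36 and 1.74. Aif1, the microglial marker also called Iba1, lay 47474 bases away with a log2FC of 2.40. These 4 neighbors were called, while Ltb (27419 bases, log2FC 1.00, adjusted p = 0.0969, edgeR) was not, Tnf (21922 bases) was not tested, and Brd2 (46610 bases) and Prrc2a (60523 bases), which act in every cell, had log2FC of 0.08 and -0.07 and were not.

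AABR07037708.1 (ENSRNOT00000092116, 2071 bases, chromosome X, 28686163 to 28698844) had 6, 12 and 12 counts in sham and 34, 41 and 67 in BCP libraries. The BCP library with 67 counts stood highest, and no BCP library reached down to the sham range. It rose from 4.33 ± 1.33 to 22.8 ± 7.95 CPM (log2FC 2.38, standard error 0.37, adjusted p = 0.0181, edgeR). Tmsb4x, which encodes the actin-binding peptide thymosin beta 4, was its nearest neighbor at 90768 bases, and it rose from 456 ± 21.2 to 954 ± 89.0 CPM of gene counts (log2FC 1.06).

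**Figure D3:**
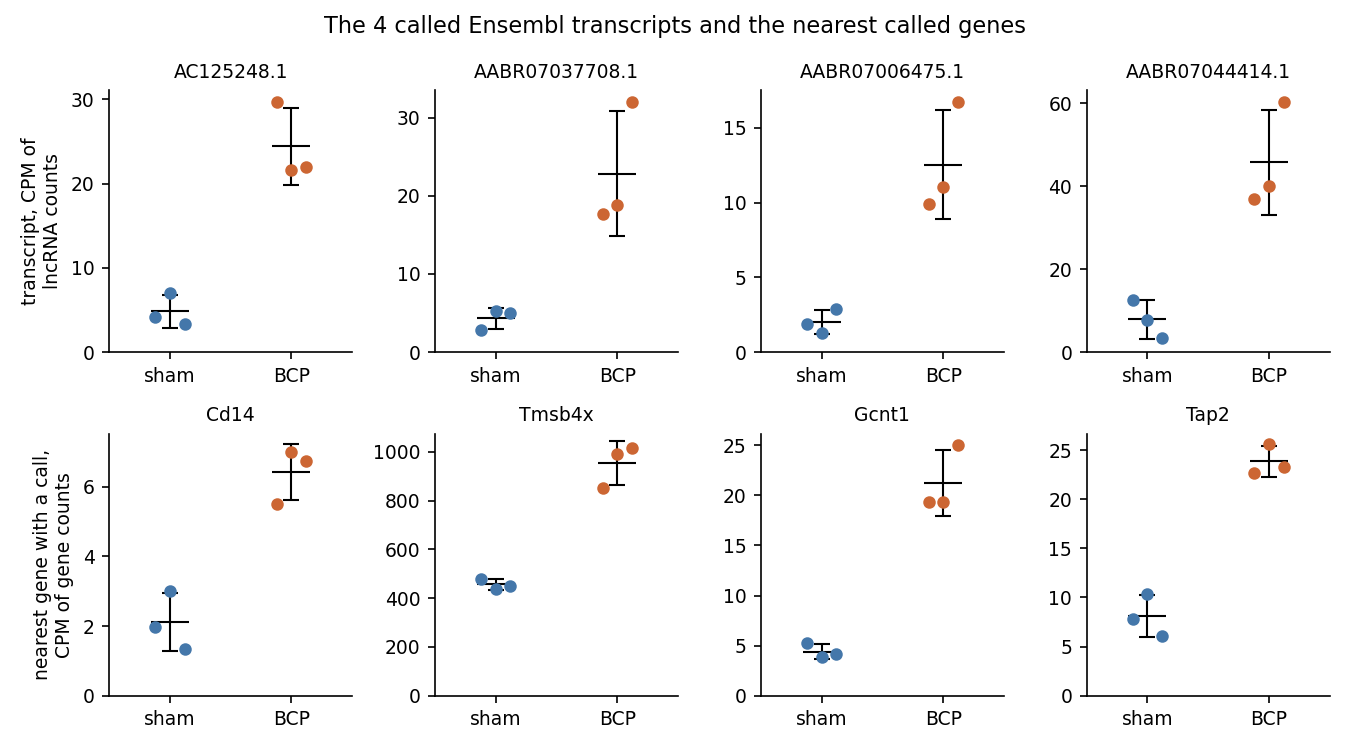
CPM in each library (points) with mean and SD (bars, n = 3) for the 4 up-regulated Ensembl transcripts (upper row, CPM of lncRNA counts) and the nearest gene with a call (lower row, CPM of gene counts), sham left and BCP right in each panel. In all 8 panels the 3 BCP points lie above the 3 sham points, for AC125248.1 at 24.4 against 4.83 CPM on average.

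These 4 calls depended on single libraries, as did calls over the whole table, of which there were 148 with all libraries and 130, 59 and 101 without sham libraries 1, 2 and 3, and 111, 78 and 57 without BCP libraries 1, 2 and 3. Leaving out sham library 1 left 1 call (AABR07044414.1), leaving out sham library 2 left 1 (AC125248.1), leaving out sham library 3 left 2 (AABR07006475.1 and AABR07044414.1), leaving out BCP library 2 left 1 (AC125248.1), and leaving out BCP library 3 left none. Without BCP library 1 the call of AABR07044414.1 ended, and Rn60_X_0667.2, with 2, 1 and 2 counts in sham and 1, 38 and 37 in BCP libraries, was called. The adjusted p over these 6 fits ran from 0.0247 to 0.0569 for AC125248.1, 0.0313 to 0.0697 for AABR07037708.1, 0.0372 to 0.0919 for AABR07006475.1 and 0.0338 to 0.223 for AABR07044414.1 (edgeR). In the gene table their gene rows, which hold the same counts for 3 of them and 93.4% transcript counts for AC125248.1, were called with adjusted p of 1.07e-05 to 1.09e-04 (edgeR).

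Markers of several cell types moved with these calls. The summed level of 5 microglial genes went from 161 to 203 CPM in sham to 453 to 548 in BCP libraries, with 3 of 5 called up-regulated (Aif1, Csf1r and Cx3cr1) and P2ry12 and Tmem119 at log2FC of 0.79 and 0.19. All 4 T cell genes were called, from 0 to 0.203 CPM in sham to 12.01 to 18.6 in BCP libraries, and Cd3d had no count in any sham library. All 5 MHC class II genes were called, from 13.7 to 20.1 CPM to 1435 to 1576. Of 3 red blood cell genes 2 were called, from 172 to 177 CPM to 295 to 455. Astrocyte genes summed to 2559 to 2894 CPM in sham and 4455 to 6182 in BCP libraries with none called, and Aqp4 had 28568 counts in BCP library 1 against 5037 and 4775 in the other BCP libraries. Within that list Gfap had a log2FC of 0.80 and Aldh1l1 one of -0.26, at 41.6 to 45.5 CPM in sham and 35.9 to 37.4 in BCP libraries (adjusted p = 0.0123, edgeR). Oligodendrocyte genes summed to 34257 to 39376 CPM in sham and 24409 to 27372 in BCP libraries, with a median log2FC of -0.48 and none called, and genes of sensory ganglia summed to 49.3 to 56.3 and 30.01 to 37.8 CPM, none called. Genes of meninges and fibroblasts overlapped between groups (27.9 to 47.8 and 42.1 to 97.4 CPM). Their part in the changes of the Ensembl transcripts was not tested.

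Below the fold change threshold, 1 further Ensembl transcript had an adjusted p under 0.05, making 5 in all, compared with 1.97% of all tested lncRNAs. LOC100910839 (ENSRNOT00000033811, chromosome 1, 113419725 to 113527735) had 741, 807 and 928 counts in sham and 516, 624 and 586 in BCP libraries. It fell by 0.37 on the log2 scale (standard error 0.07, adjusted p = 0.0329, edgeR), from 360 ± 19.8 to 278 ± 8.83 CPM without overlap. With any single library left out the adjusted p was 0.0661 to 0.125 (edgeR). A NONCODE transcript at the same place, NONRATT000747.2, went from 1025, 1049 and 1171 counts to 812, 967 and 839, with a log2FC of -0.16 that did not pass (adjusted p = 0.282, edgeR).

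Most Ensembl transcripts, 617 of 867, could not be tested. Among these the groups did not overlap for 58 (9.40%, 35 higher and 23 lower), compared with 11.6% of all 10626 untested lncRNAs. By the size of the difference 5 stand first. Rn60_13_0843.1 (ENSRNOT00000076759, chromosome 13, 79330289 to 79342069) had 0, 0 and 1 counts in sham and 15, 8 and 7 in BCP libraries, and lies 36511 and 36664 bases from Tnfsf4 and Tnfsf18, ligands of costimulatory receptors on T cells. AABR07037698.1 (ENSRNOT00000080867, chromosome X, 28577269 to 28583900) had 1, 3 and 3 counts in sham and 13, 10 and 8 in BCP libraries. It is placed 9505 bases from Tmsb4x and 14466 bases from Tlr8, a sensor of single-stranded RNA in endosomes, which rose with a log2FC of 3.32, and Tlr7, a related sensor 64312 bases away, rose with a log2FC of 2.59. AABR07067728.1 went from 7, 0 and 7 to 8, 8 and 18 counts, AABR07025303.1 from 4, 3 and 1 to 6, 12 and 9, and AC132760.2 from 6, 10 and 18 down to 4, 2 and 5. No fold change is given for these 5, since their counts are too few.

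Each Ensembl transcript could also be followed through its gene, since every transcript has a row of the same name at the same place in the gene table, 794 gene rows in all. For 618 transcripts (71.3%) the gene row held the same count in every library, and 105 transcripts held less than 50% of the counts of their gene. Of the 245 gene rows tested, 8 were up-regulated and 1 down-regulated, or 3.67% in all (background of 14908 tested genes 6.45%), and 30 (12.2%) had an adjusted p under 0.05, against 27.9%. The 4 calls beyond those above came from transcripts with too few counts in the lncRNA table or short of its threshold. AABR07004228.1 (chromosome 1, 131380879 to 131431948) had 9, 16 and 10 gene counts in sham and 31, 43 and 32 in BCP libraries, with a log2FC of 1.70 (standard error 0.32, adjusted p = 0.000399, edgeR). AABR07062033.1, AABR07002674.1 and AABR07047212.2 had gene log2FC of 2.05, 2.01 and 1.15, with 69, 53 and 68 gene counts in all. The only down-regulated gene row, AC096430.2 on chromosome 8, went from 29, 33 and 27 counts to 19, 9 and 6 (log2FC -1.26, standard error 0.38, adjusted p = 0.0182, edgeR).

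Where a transcript and its gene were both tested, 249 cases, the sign was the same in 226 and the values lay more than 0.5 apart in 16. In 147 of the 249 cases both rows held the same counts, so that agreement there was largely built in. All those 16 were among the 102 transcripts whose counts differ from those of their gene.

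**Figure D4:**
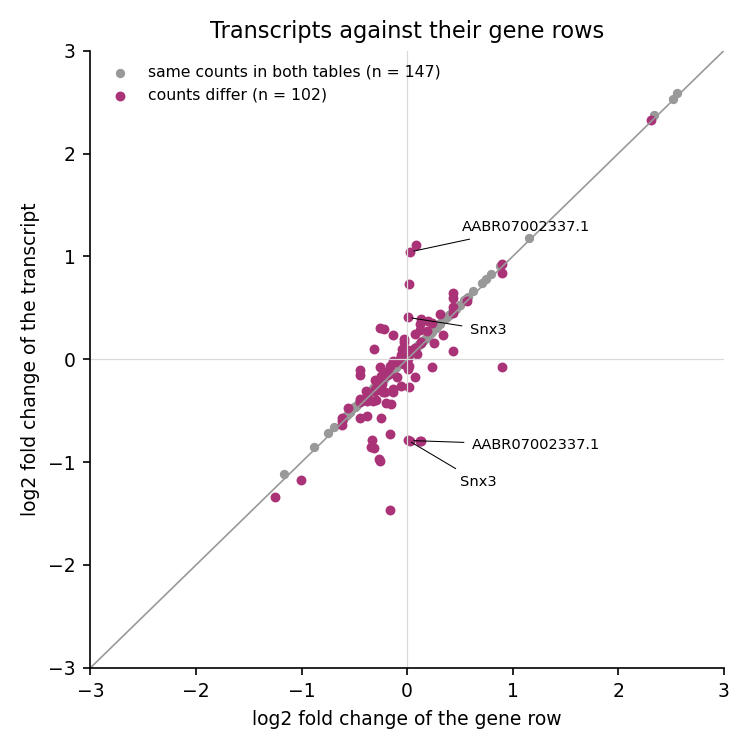
Log2 fold change of each Ensembl transcript (vertical axis) against that of its own row in the gene table (horizontal axis), with 147 transcripts whose counts are the same in both tables in gray and 102 whose counts differ in color. Gray points follow the diagonal of equal values, whereas the transcripts of Snx3 and AABR07002337.1 lie above and below it at gene values near 0.

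In 64 genes more than 1 Ensembl transcript was listed, 137 transcripts in all, and in 19 of these genes at least 2 were tested. The signs were opposite in 13 of the 19, and in 7 the log2FC were more than 1 apart. Of the genes named next, those other than Snx3 were chosen after their values had been seen. Snx3 transcript ENSRNOT00000075924 (chromosome 20, 47253664 to 47263390) had 915, 1371 and 1285 counts in sham and 1395, 1380 and 1475 in BCP libraries, while ENSRNOT00000074532 (47225619 to 47263389) had 881, 560 and 948 and then 326, 532 and 405. The first had a log2FC of 0.41 (adjusted p = 0.225) and the other of -0.79 (adjusted p = 0.271), neither called by edgeR, and the gene as a whole was at 0.01. Together the Snx3 transcripts held every count of the gene row in each library, so that nothing was left for a coding transcript of Snx3, and whether they are noncoding was not tested. The 2 transcripts of AABR07002337.1 on chromosome 1, with the same span, had log2FC of 1.04 and -0.79, neither called, and the gene was at 0.03 (adjusted p = 0.95, edgeR). AABR07004228.1 gave an extreme case. Its transcript ENSRNOT00000077086 had 9, 6 and 10 counts in sham and 31, 8 and 32 in BCP libraries, and ENSRNOT00000092225 had 0, 10 and 0 and then 0, 35 and 0, so that sham library 2 and BCP library 2 gave most counts to the latter and the other libraries gave it none. Neither was tested, although the gene was called. Rn60_6_1241.2 on chromosome 6 had 3 tested transcripts with log2FC of 0.92, 0.84 and -0.08, none called, beside a gene log2FC of 0.90 (standard error 0.12, adjusted p = 1.05e-05, edgeR).

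**Figure D5:**
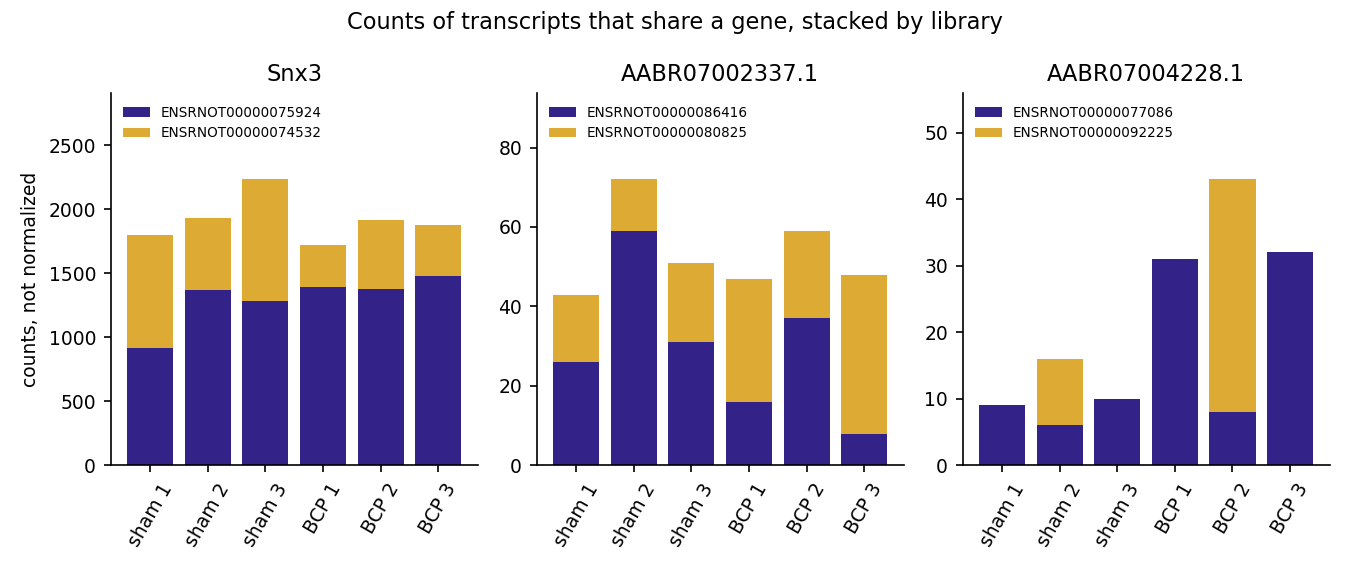
Unnormalized counts per library (vertical axis) of the transcripts of Snx3, AABR07002337.1 and AABR07004228.1, stacked by transcript identifier. Stack heights of Snx3 and AABR07002337.1 overlap between sham and BCP libraries while the split varies, and in AABR07004228.1 the second transcript appears in sham 2 and BCP 2 alone, with 10 and 35 counts.

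Counts that came and went between libraries of the same group were seen in 15 Ensembl transcripts (1.73%), which had 0 in 1 library and 10 or more in another of its group, compared with 2.54% of all lncRNAs. Transcripts with few counts can hardly meet this rule, so the 2 shares are not on equal terms. A total of 10 or fewer was held by 318 of 867 Ensembl transcripts and 3362 of all 22783 lncRNAs. The 3 transcripts named next were chosen after their values had been seen. A transcript of Ccdc171 (ENSRNOT00000076825) had 100, 105 and 91 counts in sham and 80, 0 and 63 in BCP libraries. Another 2 transcripts were high in a single library. Rn60_X_0752.3 transcript ENSRNOT00000076920 had 354 counts in sham library 1 and 2 in each other library, and Nhsl2 transcript ENSRNOT00000076212 had 104 in sham library 2 and 2 to 4 elsewhere. The Ccdc171 transcript was tested and not called, and the others did not pass the filter on low counts.

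Genes at or near the Ensembl transcripts were compared next, within the 10 kb that the study used for targets in cis. With their own gene rows included, 546 genes were tested, of which 27 were up-regulated and 2 down-regulated (4.95% up, against 6.35% of all genes up and 0.107% down). With their own rows left out, 301 remained, of which 19 (6.31%) were up-regulated and 1 was down-regulated, with a median log2FC of -0.05 against -0.01 for all genes. The share was thus close to that of all genes. Of the 27 tested genes whose spans overlapped an Ensembl transcript of another name, 4 (14.8%) were up-regulated, C4a, a complement component, Ppp1r18, and the MHC class I genes RT1-CE7 and RT1-CE4. On chromosome 20 the listed spans of C4a (4302347 to 4508214), RT1-CE7 (4694472 to 4896970) and RT1-CE4 (4673658 to 4935887) are wide, and the last 2 overlap each other. The share of 14.8% thus rests on few genes and on wide spans. The other called genes included Ncf1, a subunit of the phagocyte NADPH oxidase (log2FC 3.60), Bin2, a membrane-shaping protein of leukocytes (2.25), and Ccrl2, a chemokine-binding receptor (1.70). Faslg, the ligand of the death receptor Fas (1.07), and Cd27, a costimulatory receptor of lymphocytes with no count in any sham library, were also called. The rest were Acpp (3.26), Ankle1 (2.39), Hist1h2ac (2.19), Hist1h2bo (2.18), Sh2d1b (1.87), Tapbpl (1.74) and Vasp (1.20), beside Gcnt1, Tap2 and Tmsb4x named above.

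Few of the transcripts beside called genes could be judged themselves. Within 10 kb of a called gene of another name lay 20 Ensembl transcripts, and only 5 of them had enough counts to be tested, of which 4 had a log2FC above 0 and 2 were called (AABR07006475.1 beside Gcnt1 and AABR07044414.1 beside Tap2). The other 3 are transcripts of LOC102549726 on chromosome 20 (4871264 to 4873982), the noncoding gene whose promoter is printed above. They had log2FC of 0.29, 0.34 and -0.79 and none was called, although RT1-CE7 and RT1-CE4, whose listed spans enclose them, had log2FC of 1.98 and 1.98. Hspa1b, the stress-induced heat shock protein 3342 bases from the nearest of them, was down-regulated with a log2FC of -1.19. RT1-CE genes are near copies of each other, and their values are uncertain. Among the untested, AABR07058907.2 lies 32 bases from Bin2 and had 0, 0 and 3 counts in sham and 3, 3 and 2 in BCP libraries, while the Gtf2ird2 transcript ENSRNOT00000075846, 6805 bases from Ncf1, had 5, 7 and 7 and then 2, 5 and 3. By contrast, AABR07037698.1, 9505 bases from Tmsb4x, had 1, 3 and 3 and then 13, 10 and 8. AABR07002674.1, 4337 bases from Vasp, had 0, 4 and 2 and then 3, 7 and 8. Directions thus differed among the untested, and these examples were not picked by a rule.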

How the data were processed

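Stranded total RNA of the lumbar cord, depleted of ribosomal RNA, was sequenced in 6 libraries, 3 sham and 3 BCP, grouped by their titles. The authors used Seqtk for read filtering, HISAT2 2.0.4 for alignment to Rnor_6.0 and StringTie 1.3.0 for quantification. The deposited tables give unnormalized counts and the authors' FPKM per lncRNA transcript and per gene. The counting program and its use of strand are not given in the sources used here. The members and gene lists were chosen with earlier results of these data known.

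Counts of each whole table were fitted with edgeR 4.0.16 (R 4.3.3, TMM, filterByExpr, robust quasi-likelihood test, condition alone), with Benjamini-Hochberg adjustment over all tested features and calls at an adjusted p below 0.05 and an absolute log2FC above 1. Standard errors are the absolute log2FC divided by the square root of the F statistic. The method was tested on simulated data. DESeq2 1.42.0 was an alternative. Distances run between listed spans. Named transcripts were those called, the 5 highest by CPM (1 of them is not reported here) and by FPKM, any with 1 of 70 lncRNA names searched, the one the study names, the genes at or nearest to the called ones, other Ensembl transcripts at their loci, and the 5 untested non-overlapping transcripts with the largest difference in CPM. Others were named after their values were seen.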

Additional observations from a re-analysis of the deposited data

How the results depend on the processing

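Dropping the fold change threshold leaves the fit as it was, so it could not end any of the 4 calls. The 4 calls were also made by DESeq2, with DESeq2's size factors and with library sizes of the gene table, and 3 of them without a filter on low counts. None was made with at least 10 counts required in every library (each of the 4 had fewer in a sham library), with a test against a fold change of 2, or with the replicate block. With single libraries left out 0 to 3 of the 4 were called, and without BCP library 1 another transcript, Rn60_X_0667.2, was called as well. Over the alternatives the log2FC of the 4 stayed between 2.06 and 3.02 and the adjusted p ran from 4.98e-06 to 0.343 (edgeR or DESeq2). In the gene rows of the transcripts, an alternative chosen after seeing the data, 8 were higher and 1 lower. Without the fold change threshold 1 transcript was lower, and with single libraries left out none was.

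Of genes at or near the transcripts, 14 of 470 were higher and 1 lower with at least 10 counts in every library. In the test against a fold change of 2, 15 of 546 were higher and 0 lower. Without the fold change threshold, 63 of 546 were higher and 57 lower, beside 27.9% of all 14908 tested genes in either direction. With overlapping spans only, 12 of 272 were higher and 1 lower (4.78% in all, beside 6.45% of all genes). DESeq2 called 29 of 546 higher and 1 lower. Shares over all genes are not given for the other fits. Without the transcripts' own gene rows, also chosen after seeing the data, 19 were higher and 1 lower. With single libraries left out, 22 to 28 were higher and 1 to 4 lower, with 4 lower without BCP library 1 and 1 lower without sham library 1 or BCP library 2.

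The difference in the class's share of counts was -0.049 to -0.025 percentage points with single libraries left out. In sums of FPKM it was -0.234 percentage points (p = 0.1, exact permutation test). FPKM is scaled by length, so the size of that difference cannot be set beside the difference in counts. With single libraries left out, the log2FC of RNase MRP RNA ran from -0.088 to 0.060 and that of AABR07034750.1 from -0.0042 to 0.048, both signs turning without sham replicate 3, and AABR07034750.1 was at -0.0024 with library sizes of the gene table. None of these was near a call. Apart from those explained, the cause of these shifts was not tested.

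Deviations of same-numbered libraries had correlations of -0.016, -0.023 and 0.0066 for numbers 1 to 3. The labels do not say what the number stands for, and whether same-numbered libraries share a batch was not tested. No sham library correlated best with its own number, since numbers 1, 2 and 3 did so with BCP libraries 2, 1 and 2 (0.015, 0.030 and 0.0081). Of the BCP libraries only number 3 correlated best with its own number. With the replicate block 0 Ensembl transcripts and 49 of all lncRNAs were called, against 4 and 148, and 24 nearby genes were higher and 2 lower. The share differed by -0.040 percentage points with the pairing (p = 0.25, exact two-sided sign-flip permutation test, the smallest that 3 pairs can give). A median Ensembl transcript had 19 counts in all 6 libraries, and the 617 with the fewest usable counts were not tested.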

Other observations

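Another 2 Ensembl transcripts, chosen after their values had been seen, differed from their genes. AABR07065531.5 transcript ENSRNOT00000088572 (chromosome 6, 133667979 to 133676907) showed sham counts of 105, 151 and 105 and BCP counts of 64, 59 and 57, without overlap. Its log2FC was -0.85 (standard error 0.20, adjusted p = 0.0836, edgeR). The gene, of which it held 4.64% of the counts, had 2031, 2271 and 2453 and then 1635, 1739 and 1540 counts, with a log2FC of -0.34 (standard error 0.06, adjusted p = 0.000166, edgeR). AABR07036331.2 transcript ENSRNOT00000090171 (chromosome 12, 38873769 to 38879161) showed sham counts of 18, 14 and 27 and BCP counts of 21, 48 and 47, with a log2FC of 1.11 (adjusted p = 0.224, edgeR). Its gene row, with 29, 28 and 34 and then 26, 31 and 32 counts, had a log2FC of 0.08 (adjusted p = 0.859, edgeR), so that the transcript had more counts than the gene in BCP libraries 2 and 3 and fewer in the other libraries.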
